A study of Drosophila melanogaster with 4 samples.

Results

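Mid-width H3K79me3 regions were enriched regions of 4 to 10 kb outside the X chromosome of Drosophila melanogaster. They were chosen by their width in the deposited series-wide list, from 4000 bp to just below 10000 bp, on any sequence other than X. This gave 1360 regions of 6152 enriched regions in all, or 27.1% of the 5012 that lay off the X. They covered 8.36 Mb, which was 29.0% of the enriched bases off the X. The chromatin came from wild-type embryos of the Oregon-R strain (official name Oregon-R-modENCODE), labelled 14 to 16 hr. Whole embryos from population cages were used, so every cell type of that stage contributed. The labels name 2 chromatin immunoprecipitation and sequencing (ChIP-seq) samples with an H3K79me3 antibody and 2 input samples of the same strain, stage and genotype, and the values below come from the ChIP samples. All groups share genotype and stage, so no conditions were contrasted. The labels do not name separate collections for the replicates, whose differences may therefore be technical.

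H3K79me3 is trimethylation of lysine 79 of histone H3. This residue lies on the outer face of the nucleosome core rather than in the histone tail. The mark is placed by Dot1-type enzymes, in flies by the protein Grappa, which unlike most histone lysine methyltransferases has no SET domain. It is known from the bodies of transcribed genes. A region in these lists is a stretch that the authors called significantly enriched, and its score is the authors' own value, whose scale is not stated. Scores are therefore compared as levels and differences, without folds. The lists hold no read counts, so the depth behind a region is unknown. Positions are 1-based on FlyBase r5, and no genes are named, since the only gene table at hand is on Release 6.

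The rule used only width and chromosome. The narrowest members had 4003 bp (3R from 21411252 to 21415254, score 1.05) and 4005 bp (3R from 13368580 to 13372584, score 0.776). Just below the lower limit lay 3 regions of equal width, 3999 bp, among them 2L from 20058916 to 20062914 with a score of 0.579 and 3L from 11686708 to 11690706 with 1.45. The widest members had 9981 bp (2R from 9327368 to 9337348, score 1.57) and 9979 bp (3R from 11083632 to 11093610, score 1.73). The first regions beyond the upper limit had 10011 bp (3R from 13500054 to 13510064, score 2.08) and 10017 bp (3R from 9507392 to 9517408, score 1.48). Scores did not jump at either limit in these examples. The median member was 5805 bp wide, and the 5th and 95th percentiles of width were 4127 and 9226 bp.

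Width said little about the score of a mid-width region. Scores ran from 0.279 to 3.01 with a median of 1.16, and the 5th and 95th percentiles were 0.490 and 2.27. Within the class, width and score had a Spearman's rho of 0.19, against 0.81 over all enriched regions off the X, whose range of widths is far larger. In each replicate's own list, regions of 4 to 10 kb had a rho of 0.23 in replicate 1 and 0.20 in replicate 2. These coefficients describe regions of 1 library each, and regions are not replicates.

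The spread was then read at given width, in 12 bins of 500 bp. In the narrowest bin, which began at 4000 bp, 241 regions had scores from 0.308 to 2.56 with a median of 0.989. In the widest, which began at 9500 bp, 44 regions ran from 0.608 to 3.00, with quartiles of 1.26 and 1.78. Bin medians lay between 0.989 and 1.55 and did not rise steadily, since the bin of 7000 to 7499 bp had a median of 1.06 and that of 8500 to 8999 bp one of 1.19. The same 2 bins were low among their neighbours among the replicate regions that matched these members, with medians of 1.29 and 1.37 in replicate 1 and 1.25 and 1.29 in replicate 2. The standard deviation (SD) of scores within bins was 0.547, nearly the 0.557 over all members together. Knowing the width to 500 bp thus left almost all of the spread in place.

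**Figure D1:**
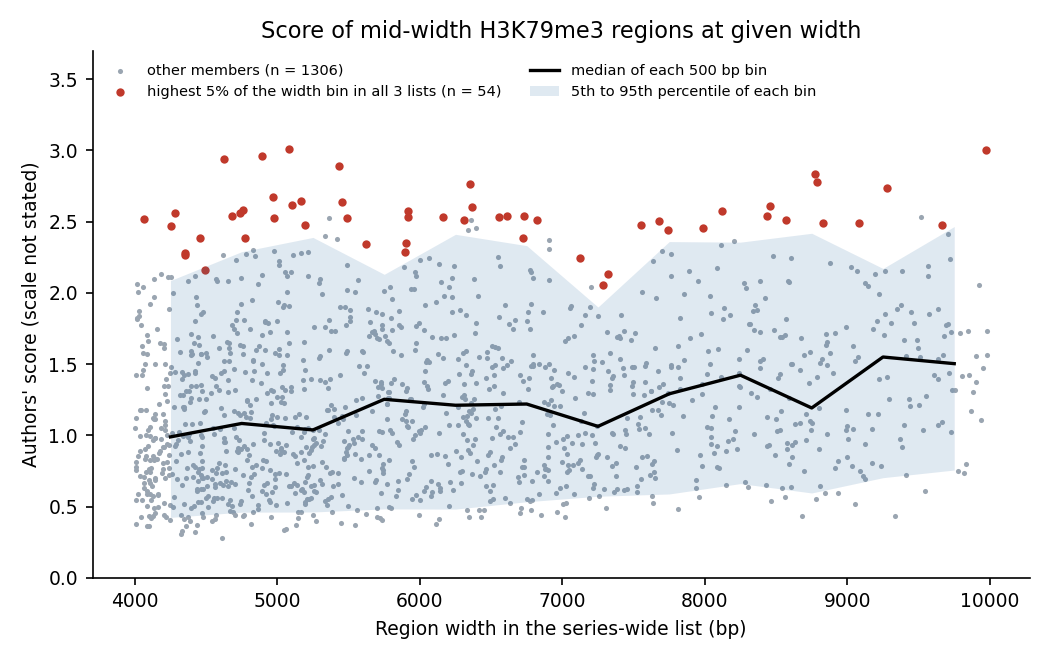
Authors' score of each of the 1360 mid-width regions (points) against its width in the series-wide list in bp, with the median (line) and the 5th to 95th percentile (band) of each 500 bp bin. The bin medians stay between 0.989 and 1.55, while scores inside each bin spread from below 0.7 to above 2.2, and the 54 regions in the highest 5% of their bin in all 3 lists (red) occur in every bin.

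Of the 4 width classes off the X, the mid-width regions had the largest interquartile range of scores, 0.829. It was 0.715 in the 701 regions of 10 kb or more, 0.506 in the 1652 regions of 2 to 4 kb and 0.115 in the 1299 regions under 2 kb. Medians in the same order of width, broadest first, were 1.59, 1.16 for the members, 0.600 and 0.310. Scores of 2 or more were reached by 153 members, or 11.3% of the class, against 21.5% of the broad class (151 regions) and 6.66% of all regions off the X (334 regions). The 2 to 4 kb class held 28 such regions and the narrowest class 2. At the other end, 76 members scored below 0.5. On the X, 316 regions of the same width range had a median score of 1.22 and 5th and 95th percentiles of 0.542 and 2.24, close to the 0.490 and 2.27 of the members. These classes are cut by width in the list that gave the scores, so the differences between them are a description.

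Both replicates marked nearly all of these places. Of the 1360 members, 1313 (96.5%, 95% Wilson interval 95.4 to 97.4%) had at least 50% of their length inside enriched regions of each replicate. Over all enriched regions off the X the share was 73.5%, with 18.6% in those under 2 kb, 86.4% in those of 2 to 4 kb and 99.9% in those of 10 kb or more. The members thus lay in the order that width gives. The interval covers counting error only and treats the regions as independent, though they share 2 libraries. Whether the series-wide list was built from the same reads is not given in the sources used here, so the replicates are not independent evidence for it.

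The 47 members short of this had low scores, and most fell short of 50% in replicate 2. Falling short is not absence, since over all members 9 shared no base with replicate 2 and 1 shared none with replicate 1. In replicate 1 alone 41 were overlapped to that extent, with a median score of 0.441 and none above 0.656. In replicate 2 alone there were 4, with a median of 0.718 and none above 0.778. Neither replicate covered 50% of 2 members. The first, on 3L from 10333472 to 10337482 (4011 bp, score 0.379), shared no base with replicate 1 and was covered to 46.0% in replicate 2. The second, on 3R from 19148588 to 19153198 (4611 bp, score 0.279, the lowest of all members), was covered to 37.5% in replicate 1 and not at all in replicate 2.

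Coverage was fuller in replicate 1. The median member lay inside enriched regions over 97.8% of its length in replicate 1 and over 95.3% in replicate 2. At least 90% was covered for 1091 members (80.2%) in replicate 1 and for 946 (69.6%) in replicate 2. A replicate region that on its own covered at least 50% of a member was taken as its counterpart. Such a counterpart existed for 1293 members in replicate 1, for 1264 in replicate 2 and for 1219 in both. The counterpart was itself 4 to 10 kb wide for 1137 members in replicate 1 and for 1036 in replicate 2. It was narrower than 4000 bp for 155 and 205 members, so narrower calls were the usual way to leave the class.

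Counterparts wider than the class were rare and unequally shared between the replicates. Replicate 1 had 1 of 10000 bp or more and replicate 2 had 23. In replicate 2, 6 regions each served as counterpart of more than 1 member, 13 members in all, and no replicate 1 region did so. The clearest case lay on 2L, where the members from 5101838 to 5105948, from 5106336 to 5115594 and from 5117526 to 5125674 were separate in the series-wide list. Their series-wide scores were 0.769, 1.70 and 0.654, and their replicate 1 counterparts scored 0.798, 1.84 and 0.613. Replicate 2 had a single region of 21771 bp there with a score of 1.32. Series-wide and replicate 1 scores put the middle member well above both neighbours, and the joined call of replicate 2 gave all of them the same value.

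A member's score relative to others of its width was much the same in both replicates. For this, the median of the members in the same 500 bp bin was subtracted from each score, separately in each list, and the remainder is called the score excess. Over the 1219 members with a counterpart in both replicates, Pearson's r between the excesses was 0.95 and Spearman's rho 0.94. The excess had the same sign in 1107 of them. Over these 1219 members the SD of the score difference between replicates was 0.161, which is 0.114 for a single replicate. The 0.547 within width bins was for series-wide scores of all members, including those without both counterparts. The spread at given width was thus several times the spread between replicates where both had a counterpart. Replicate 1 scored slightly higher, with medians of 1.32 and 1.29 over the same members, a median difference (replicate 2 minus replicate 1) of -0.0547, and 416 members (34.1%) higher in replicate 2. The points share 2 libraries and a common pipeline, and regions are not replicates, so no p-value is attached.

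**Figure D2:**
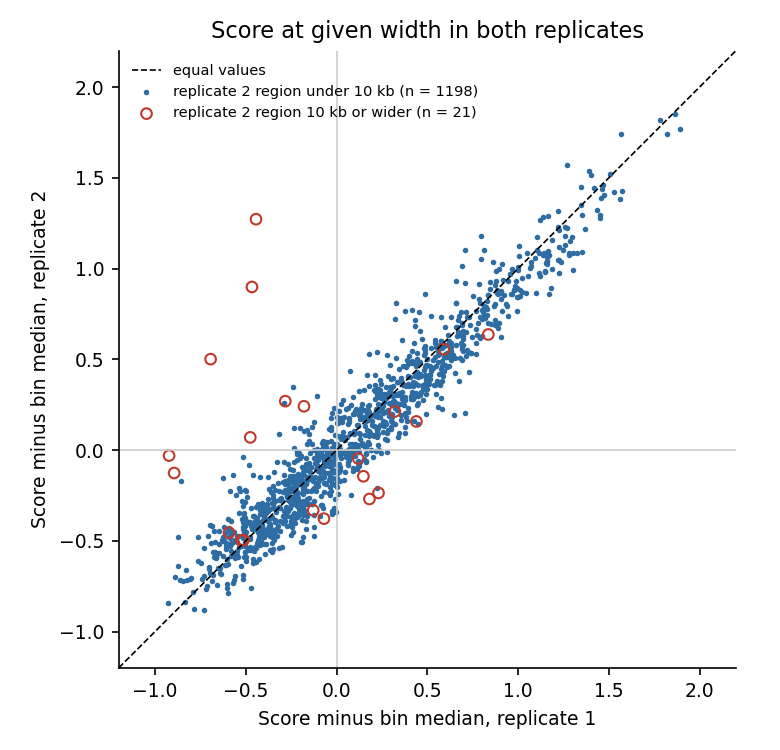
Score minus the median of the same 500 bp width bin in replicate 1 (x axis) and replicate 2 (y axis) for the 1219 mid-width regions with a counterpart in both. Most points follow the dashed line of equal values, and the points farthest above it are regions whose replicate 2 counterpart is 10 kb or wider (red circles).

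Large differences between the replicates were few. A difference above 0.5 in either direction occurred in 13 members, 10 of them higher in replicate 2. In 7 of these 10 the replicate 2 counterpart was 10 kb or wider. The member on 3R from 6443026 to 6447128 scored 0.585 in the series-wide list, 0.637 in replicate 1 and 2.32 in replicate 2, where its counterpart measured 38569 bp. The member on 3L from 15222068 to 15227490 had 0.733, 0.738 and 2.05, with a counterpart of 15716 bp in replicate 2. On 3L from 11236496 to 11241062 the values were 0.440, 0.495 and 1.66, with a counterpart of 12475 bp. In all 3 of these members the series-wide score was close to replicate 1.

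The largest differences in the other direction were smaller. The member on 2R from 17049116 to 17058492 scored 2.37 in replicate 1, where its counterpart spanned 4896 bp of a member of 9377 bp, and 1.79 in replicate 2, where the counterpart had 9181 bp. The next was the middle member of the joined stretch on 2L described above. Another lay on 2R from 2835186 to 2840538, with 1.44 in replicate 1 and 0.913 in replicate 2, whose counterpart there was 20250 bp wide. All 6 named differences went with counterparts of very unequal width in the replicates, and the part of region joining in them was not tested further.

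High-score regions were sought as members in the highest 5% of their width bin. The series-wide list gave 74, and each had a counterpart in both replicates. Of these, 63 were also in the highest 5% of the bin in replicate 1, 59 in replicate 2, 54 in both and 6 in neither. The 54 made up 3.97% of the members. The same rule applied to every enriched region off the X, each in its own width bin, called 2.73%, with 3.51% in the 2 to 4 kb class, 3.42% in the broad class and 0.0770% in the narrowest. The share among members was thus near that of the neighbouring classes. Series-wide scores of the 54 ran from 2.06 to 3.01, and none was split into several regions in replicate 1 and 1 was in replicate 2.

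The 10 with the largest excess over both replicates were named. The first lay on 3R from 22972794 to 22978228 (5435 bp). It scored 2.89 in the series-wide list, 3.07 in replicate 1 and 3.00 in replicate 2, an excess of 1.86 ± 0.00971 (SD, n = 2). Both replicates called it narrower, at 4853 and 4814 bp. The second, on 3R from 11067750 to 11072834 (5085 bp), scored 3.01, 3.09 and 2.92, an excess of 1.83 ± 0.0861. The third, on 3R from 1305564 to 1310456 (4893 bp), scored 2.96, 2.97 and 2.97, an excess of 1.80 ± 0.0235. The fourth, on 2R from 18685738 to 18690360 (4623 bp), scored 2.94, 3.01 and 2.90, an excess of 1.78 ± 0.0548. These 4 stood about 1.8 score units above regions of their own width, many times the difference between their replicates.

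The others of the 10 had excesses from 1.47 to 1.65. On 2R from 17030234 to 17035200 the member scored 2.76 and 2.90 in the replicates although replicate 2 marked only 72.5% of it, as a region of 3601 bp. A wider one, on 2R from 13344260 to 13353030 (8771 bp), scored 2.87 and 2.81. On 3R from 5459790 to 5464068 the scores were 2.65 and 2.48, and 2.77 and 2.53 on the same arm from 5630250 to 5635706. The remaining members lay on 2L from 21677592 to 21682760, with 2.73 and 2.57, and on 3R from 25416910 to 25420974, with 2.47 and 2.59. Of the 10, 9 were narrower than 5500 bp. This did not hold for the 54 as a whole, of which 22 (40.7%) were that narrow, against 595 (43.8%) of all members, and whose median width was 6041 bp against 5799 bp for the rest.

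**Figure D3:**
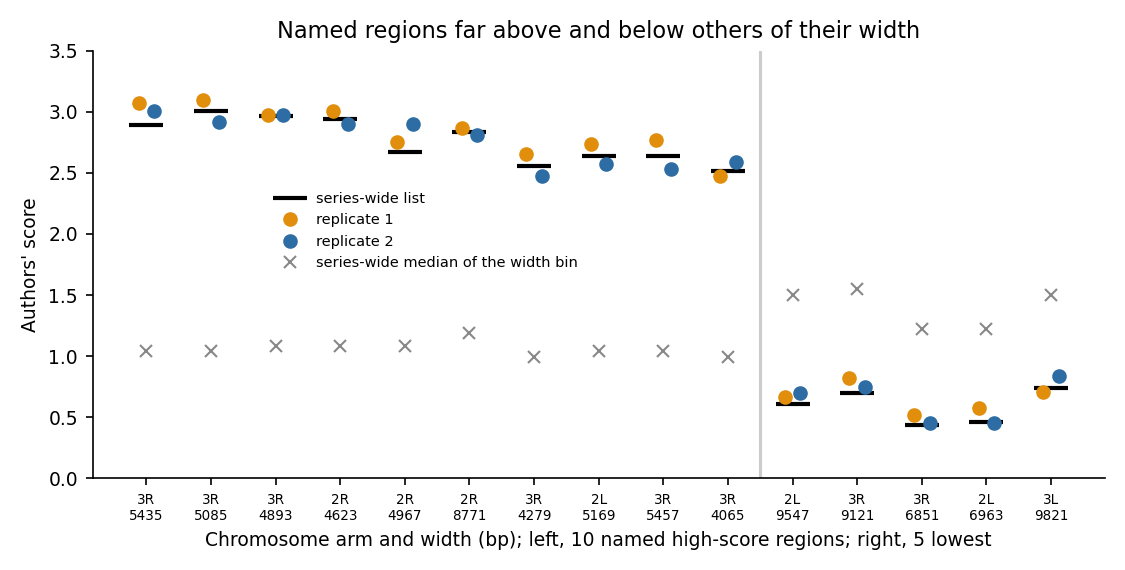
Authors' score in the series-wide list (short lines), replicate 1 and replicate 2 (dots) for the 10 named high-score regions (left) and the 5 members with the lowest excess (right), labelled by chromosome arm and width in bp, with the median of their width bin (crosses). The left group lies between 2.47 and 3.09 and the right group below 0.84, while the crosses stay between 0.989 and 1.55.

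The 54 high-score regions were scattered. There were 16 on 2R, 16 on 3R, 11 on 2L and 11 on 3L, which is 4.98%, 4.19%, 3.83% and 3.03% of the members of each arm, and none on chromosome 4. The median distance to the next of them on the same arm was 950 kb. Only 4 had another within 100 kb. The closest pair was 2501 bp apart on 3R, the region from 5459790 to 5464068 named above and its neighbour from 5452832 to 5457288, which scored 2.38 in the series-wide list, 2.42 in replicate 1 and 2.40 in replicate 2. In the nearest gap the 54 resembled the rest, with medians of 890 bp and 983 bp. On the farther side the medians were 11838 bp and 7765 bp, and 53.7% of them against 43.0% of the other members had at least 10 kb free there.

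Low-score regions behaved differently from high-score ones between the lists. The lowest 5% of each width bin in the series-wide list also held 74 members, with a median score of 0.440, but only 21 had a counterpart in both replicates. Of these, 12 were in the lowest 5% in all 3 lists. Among the 74, 64.9% were met by several separate regions in replicate 1 and 41.9% in replicate 2. The lowest excess among members with both counterparts belonged to 2L from 11581708 to 11591254 (9547 bp), which scored 0.608 in the series-wide list, 0.663 in replicate 1 and 0.697 in replicate 2, an excess of -0.887 ± 0.0628 (SD, n = 2). It was followed by 3R from 25101136 to 25110256 (9121 bp) with 0.824 and 0.749 in the replicates and 3R from 11759218 to 11766068 (6851 bp) with 0.521 and 0.455. The last of the 5 were 2L from 1923958 to 1930920 (6963 bp) with 0.575 and 0.449, and 3L from 4385110 to 4394930 (9821 bp) with 0.702 and 0.839. Each of these 5 was met by 2 regions in at least 1 replicate.

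Weak mid-width regions were also less sharply drawn. Members were divided into 4 groups of nearly equal number by the series-wide score excess, numbered from 1 (lowest) to 4 (highest), which have similar widths, with medians from 5644 to 6046 bp. In replicate 1, 35.6% of group 1 were met by 2 or more separate regions, and 12.2%, 5.65% and 0.294% of the following groups. In replicate 2 the shares were 29.1%, 9.30%, 5.95% and 3.24%. Over all members 183 (13.5%) were split in replicate 1 and 162 (11.9%) in replicate 2, into at most 3 regions, and 62 in both. Those 62 had a median score of 0.602, against 1.31 for the 1069 members met by exactly 1 region in each replicate. The order of the groups was the same in both libraries. Split members were also wider, at 6783 against 5728 bp at the median in replicate 1 and 6730 against 5733 bp in replicate 2.

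The ends told the same. For 1049 members met by 1 counterpart in each replicate, the start moved by a median of 91 bp between replicates and the end by 92 bp, and both stayed within 500 bp in 802 (76.5%). The mean shift of both ends had a median of 286 bp in group 1, 176 and 114 bp in groups 2 and 3 and 79.5 bp in group 4. These medians rest on 138, 279, 303 and 329 members, so most of the 340 in group 1 are not in them. A strong region of this width was therefore placed more closely by the 2 libraries than a weak one. Scores and ends come from the same reads in each library, and what part the signal level plays in where ends are called was not tested.

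**Figure D4:**
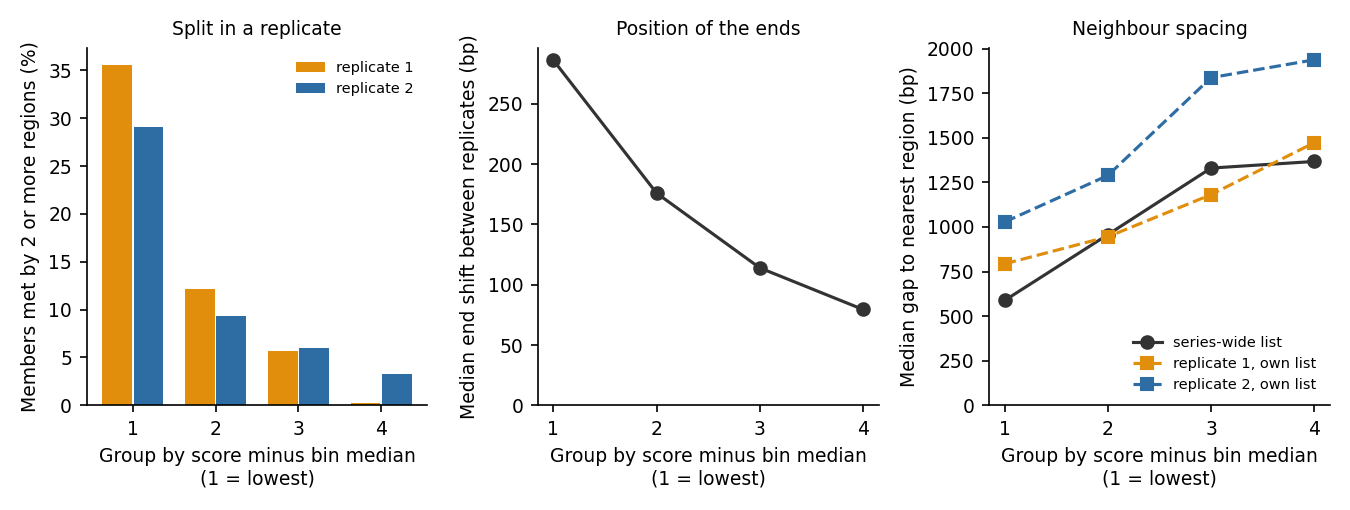
Mid-width regions in 4 groups by score excess (1 lowest, 4 highest): the percent met by 2 or more regions in each replicate (left), the median shift of both ends between replicates in bp for members met by 1 region in each (middle), and the median gap to the nearest enriched region in bp (right). Splitting falls from 35.6% and 29.1% to 0.294% and 3.24%, the end shift falls from 286 to 79.5 bp, and gaps widen from group 1 to group 4 in the series-wide list and in both replicates' own lists.

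Mid-width regions rarely stood alone. The gap to the nearest enriched region of any width had a median of 980 bp and quartiles of 329 and 3289 bp. Within 1 kb lay a neighbour of 684 members (50.3%), within 100 bp one of 128, and 135 had neighbours within 1 kb on both sides. On the farther side the median gap was 7844 bp. These distances were not particular to the class: nearest gaps had medians of 1013 bp in regions under 2 kb, 1146 bp in those of 2 to 4 kb, 1075 bp in the broad class and 1071 bp in mid-width regions of the X. In the replicates' own lists the median for regions of 4 to 10 kb was 1033 bp in replicate 1 and 1524 bp in replicate 2. A gap depends on which weak regions a list includes, and replicate 2 held fewer regions off the X, 4271 against 4826.

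The adjacent regions were a near cross-section of the list. The neighbour on each side of every member was counted, so a region between 2 members counted for both. Of these 2720 neighbours, 29.5% were themselves mid-width, against 27.1% of all regions off the X. Regions under 2 kb made up 22.0% of the neighbours and 25.9% of all, those of 2 to 4 kb 32.9% of the neighbours, close to their share of all, and broad ones 15.6% and 14.0%. Runs of 2 or more consecutive members numbered 283 and held 684 of the 1360 members. Most, 202, were pairs, and the longest held 6.

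The longest run lay on 2L from 10765814 to 10979690, yet its 6 members covered only 15.6% of that span. Their scores in order were 0.957, 2.54, 2.30, 1.84, 1.38 and 1.87, and in it gaps of 68203 and 102827 bp separated 1, 3 and 2 members. The second run, on 3R from 23077180 to 23117214, was compact, with 5 members covering 88.2% of 40035 bp. Its scores were 1.39, 1.62, 0.512, 1.99 and 1.44 in order, and the gaps between members were 343, 2441, 823 and 1109 bp. The weak middle member, from 23092956 to 23097820, scored 0.582 in replicate 1 and had no counterpart in replicate 2. A low and a high region could thus lie within about 1 kb of each other.

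Members with high excess had somewhat more room. The median nearest gap was 588 bp in excess group 1, then 957, 1330 and 1367 bp. A neighbour within 1 kb was found for 63.2% of group 1 and for 44.4% of group 4. Regions of 4 to 10 kb in the replicates' own lists, divided in the same way, gave 793, 945, 1181 and 1473 bp in replicate 1 and 1028, 1289, 1837 and 1937 bp in replicate 2. Group 1 was the most crowded in each list. No neighbour lay within 10 kb of 5.88% of group 1 and 9.71% of group 4.

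The most isolated members ranged from below to far above others of their width. On 2L from 22018994 to 22024390 (5397 bp, score 1.13) the nearest enriched region was 96791 bp away, with replicate scores of 1.22 and 1.13. The second most isolated, on 3R from 1826294 to 1835080 (8787 bp), lay 89645 bp from its nearest neighbour and scored 2.78, with 2.77 and 2.80 in the replicates, which placed it among the 54 high-score regions. The third lay on 3R from 7948444 to 7954180 (5737 bp, score 1.02), 89355 bp from any other, with 1.15 and 0.944. In this order, the mean excesses over the replicates were -0.00149, 1.46 and -0.280. Each of these 3 had a counterpart in both replicates covering over 91% of it.

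Scores of neighbouring members were related at short range. For members under 1 kb from the next member, Pearson's r between the 2 excesses was 0.41 over 115 pairs in the series-wide list. It was 0.36 over 103 pairs in replicate 1 and 0.41 over 101 pairs in replicate 2. At gaps of 1 to 10 kb the values were 0.21 over 303 pairs, and 0.19 and 0.16 in the replicates. At 10 kb or more they were -0.04 over 937 pairs, and -0.04 and -0.06. The order of the 3 distance ranges was the same in all 3 lists. Pairs within 1 stretch share their library and local background, and a few share a replicate 2 region, so these coefficients are descriptive.

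Mid-width regions made up similar shares of the enriched regions on the 4 large autosomal arms, from 26.3% (2L) to 29.2% (3L). The 4 large autosomal arms held 1353 of the 1360 members, or 14.0 per Mb, close to the 14.1 per Mb of the same width range on the X. The arm 2R had 15.2 per Mb, 3L 14.8, 3R 13.7 and 2L 12.5. In the replicates' own lists 2R had 15.5 ± 1.74 per Mb (SD, n = 2) and 2L 11.4 ± 1.11, and within each replicate 2R was highest and 2L lowest, at 16.7 against 12.2 and at 14.2 against 10.6. Median scores were 1.27 on 2R, 1.17 on 2L, 1.16 on 3R and 1.12 on 3L. Large arms differed in median excess by little, from -0.0326 on 3L to 0.0790 on 2R, and 2R was also the highest large arm in replicate 1, at 0.0508, and in replicate 2, at 0.105.

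In the 10% of arm length next to the centromere, mid-width regions were few on 2R and 3L but not on 3R. Each large arm was cut into 10 segments of equal length, numbered from the centromere, and segments of the same number were added up. Summed over the arms, segment 1 held 74 members, or 7.66 per Mb, while segments 2 to 10 held 115 to 171 each, or 11.9 to 17.7 per Mb. The highest count belonged to segment 10, at the chromosome ends. The low sum in segment 1 came from 2R, with 4 members, and 3L, with 8, where every other segment held at least 22 and 27. On 3R segment 1 held 45, which only segment 8 exceeded, with 46. On 2L it held 17, as did segment 3, and segment 4 held 16. Of all enriched regions in segment 1, 23.9% were mid-width, against 24.8 to 30.5% in the others, so the other widths were few there as well. The median score in segment 1 was 1.39, above the 1.06 to 1.22 of the others, with an excess of 0.209 and of 0.176 and 0.181 in the replicates. As 45 of its 74 members were on 3R, this mainly describes that arm.

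**Figure D5:**
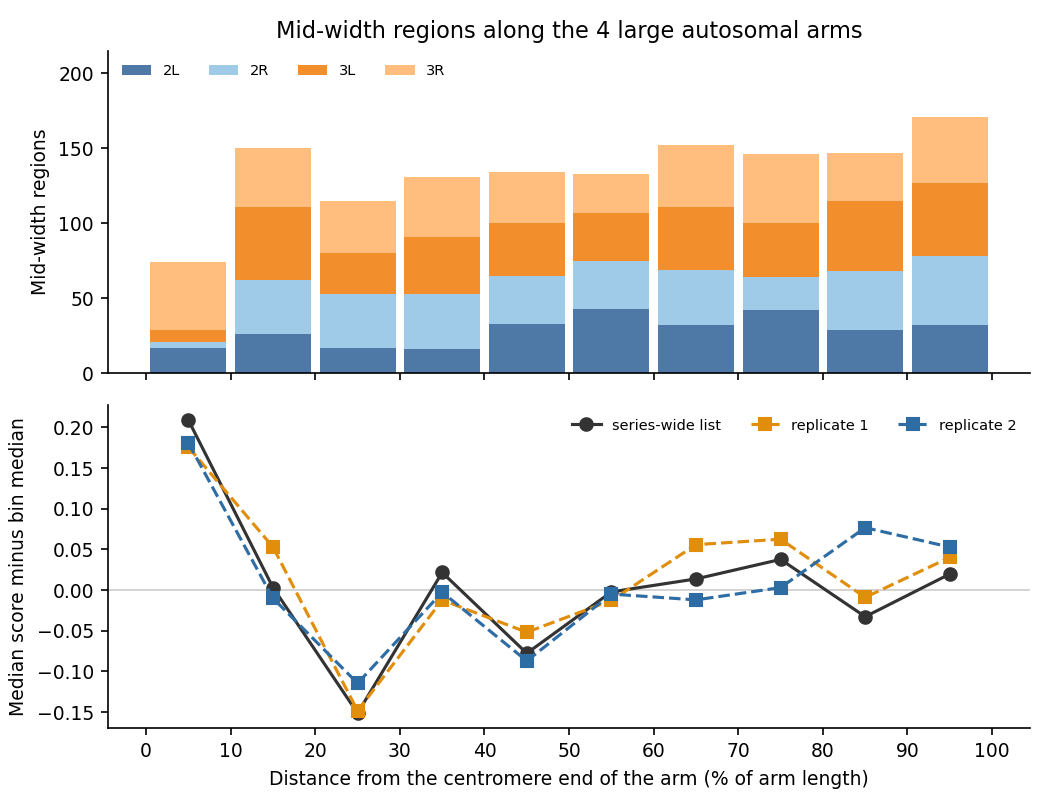
Number of mid-width regions on 2L, 2R, 3L and 3R (top, stacked) and their median score excess (bottom; series-wide list, replicate 1 and replicate 2) in 10 equal segments of arm length from the centromere end. Segment 1 holds 74 regions, 45 of them on 3R, against 115 to 171 in the others and has the highest median excess, 0.209, while segment 3 has the lowest in all 3 lists.

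At a finer scale, 95 full bins of 1 Mb held from 0 to 27 members, with a median of 14 and quartiles of 11 and 18. The bin on 2R from 20 to 21 Mb had the most, 27, and the replicates' own lists gave 27 and 19 there. It was followed by 3L from 1 to 2 Mb with 24 (22 and 22) and 2L from 10 to 11 Mb with 24 (22 and 25). No member lay in the bins on 2R from 0 to 1 Mb and on 3L from 23 to 24 Mb, which had 13 and 6 enriched regions of other widths. The bin on 2L from 22 to 23 Mb, also near the centromere, held 1 member among 15 enriched regions. Beyond 2 Mb from the arm ends, the lowest count was 5, in a pair of bins on 3R. From 3 to 4 Mb it was 5 in both own lists as well, with 24 enriched regions of all widths, while from 15 to 16 Mb, with 41, the own lists gave 11 and 6. The longest stretch between consecutive members spanned 674753 bp on 2L from 14361789 to 15036541 and held 17 enriched regions of other widths.

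Some bins had members that were weak or strong as a group. Among the 77 bins with 10 or more members, median scores ran from 0.714 to 1.70. The lowest was 3R from 12 to 13 Mb, where 18 members had a median of 0.714, and their counterparts 0.831 and 0.774 in the replicates. On 2L from 1 to 2 Mb, 11 members had 0.811, and 0.814 and 0.898 in the replicates. The next bin, 2L from 5 to 6 Mb, had 0.814 for 20 members, but 1.17 and 0.983 in the replicates. Replicate medians leave out members without a counterpart. The highest was 3R from 17 to 18 Mb, with 1.70 for 11 members and 1.93 and 1.58 in the replicates. On 3L from 21 to 22 Mb, 19 members had 1.67, and 1.74 and 1.70. Across the 77 bins, the replicates' median excesses had a Pearson's r of 0.82, a value for shared places in 2 libraries and not for independent samples.

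The outermost members marked how far the class reached. On 2L the first lay from 82808 to 87728 (score 0.590) and the last from 22018994 to 22024390, the isolated region named above. On 2R they lay from 1866266 to 1873912 (score 1.61) and from 20980898 to 20985370 (0.770), and on 3L from 182348 to 186368 (0.853) and from 22867660 to 22874168 (1.63). On 3R they lay from 56050 to 61058 (1.56) and from 27875986 to 27880896 (1.80). The arm 3R alone had a member within 100 kb of both of its ends. No member lay on the Het sequences, which are assembled pieces of heterochromatin, where the widest of 17 enriched regions had 3047 bp.

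Chromosome 4, a short chromosome rich in heterochromatin, held 7 members, or 5.18 per Mb. Their median score of 0.807 in the series-wide list was below that of each large arm. In replicate 2 the median score of their 7 counterparts was 1.31, above 2L (1.26), 3L (1.21) and 3R (1.26) but below 2R (1.33). The median excess there was 0.154, the highest of the large arms and chromosome 4. In replicate 1 only 5 had a counterpart, with a median score of 0.865 and a median excess of -0.216. The strongest, from 676334 to 681632 (5299 bp), scored 1.56 in the series-wide list, 1.56 in replicate 1 and 1.76 in replicate 2. The member from 69466 to 76960 scored 1.31 and 1.47 in the replicates, and that from 623660 to 628066 scored 0.865 and 0.991. The member from 572190 to 579300 scored 0.664 and 1.10, with counterparts of 3895 and 7032 bp. That from 532900 to 541440 scored 0.443 and 1.26, with counterparts of 5528 and 17485 bp. All 5 members with a counterpart in both replicates were thus higher in replicate 2, against 34.1% over all such members. The other two, from 89574 to 94392 and from 882932 to 887962, had a counterpart in replicate 2 alone, with scores of 1.31 and 1.45. In their own lists the replicates had 5 and 12 regions of this width on chromosome 4. The median scores of these regions were nearly equal, 1.1987 in replicate 1 and 1.1999 in replicate 2. The higher scores in replicate 2 thus describe matched members and were not seen in the medians of the own lists.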

How the data were processed

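Enriched regions of 2 H3K79me3 ChIP replicates and 1 series-wide list were read as the authors deposited them. The inputs had no values of their own here; the labels pair them with ChIP lists. The submitters' processing notes name Bowtie 0.12.7 without its role. Positions follow FlyBase r5, per the file headers. The method behind the regions and their deposited score, the score's scale and any pooling of reads: not given in the sources used here. A stricter calling threshold could change widths, splits and gaps. The depth is unknown, so no depth-based interval was set. Regions called depleted were left out.

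Widths, overlaps, counterparts, score excess (score minus the median of the 500 bp width bin), gaps (unmarked bases between regions) and positions were computed and checked on simulated lists (Python 3.11.15; pandas 2.3.3; numpy 2.4.6; scipy 1.17.1). Overlap meant at least 50% of a region's length. When all widths were ranked for high scores, regions of 10 kb or more were binned with limits at 15 and 20 kb. Regions were named by rule: the highest and lowest excess, the largest replicate differences, overlap in neither replicate, isolation, the longest runs, the width limits, arm ends and the top of chromosome 4. Members of the joined stretch, the closest high pair, the other members of chromosome 4 and single 1 Mb bins were named after their values were seen. The members and all rules were chosen with earlier results of these data known. No test was run, since the design has 2 replicates and no contrast.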

Additional observations from a re-analysis of the deposited data

How the results depend on the processing

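Of 28 alternatives run over 9 values, 14 stayed within the replicate spread, the interval or 1.5 times the value and 14 moved beyond it. The yardstick differed between values, so staying or moving cannot be compared across them. Only the correlations and the score difference could change direction, and none of them did. The share of members overlapped in both replicates (96.5%) was 99.3% with 1 shared base, 78.8% with 80% of the length and 66.0% with the higher-scoring 50% of each replicate list. Pearson's r of the excess between replicates (0.951) was 0.931 as a residual on log10 replicate width and 0.965 when 50% of both lengths had to overlap. The 54 high-score regions became 105 with the highest 10% and 26 with the highest 2.5%, and 59 and 63 when 1 replicate was left out. The median nearest gap (980 bp) was 1516 and 1906 bp with neighbours from replicate 1 and replicate 2, 3625 bp with the higher-scoring 50% of regions and 9877 bp with other members alone. The density ratio of 2R to 2L (1.22) was 1.37 and 1.34 in the replicates' own lists. The median mid-width share per bin (26.3%) was 27.6% in bins of 2 Mb. The correlation of consecutive members under 1 kb apart (0.406), added after the data were seen, was 0.435 with 1 kb bins and 0.415 without members joined in replicate 2. No paired analysis was possible because no groups were compared. Depth is unknown, so it is not known how much of the weak members' splitting it limits.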
